A study of Homo sapiens with 8 samples.

Results

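The 45 genes described here encode the machinery that licenses replication origins and copies DNA, together with the enzymes that make its precursors. They were taken by name from a list of 12 complexes and roles, and all 45 were found among the 57189 genes of the count files. The list held the origin recognition complex (ORC1 to ORC6), the loading factors CDC6 and CDT1 with the inhibitor GMNN, the MCM2-7 helicase, the activators MCM10 and CDC45, the GINS complex, DNA polymerases alpha, delta and epsilon with primase, the PCNA clamp and its RFC loader, the single-stranded DNA binding complex RPA, the Okazaki fragment enzymes FEN1, LIG1 and DNA2, and RRM1, RRM2 and TYMS for nucleotide supply.

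Messenger RNA came from 2 human T-cell acute lymphoblastic leukemia (T-ALL) lines, CUTLL1 and TIB153, each as control and PKF118-310-treated cells. The compound keeps β-catenin, the transcriptional effector of Wnt signaling, from binding TCF proteins. According to the text of the study, treated cells received 1 µM for 24 h and controls a placebo, in both lines alike and in serum-containing medium. Each group was 1 library of 1 line, read in 2 lanes that were summed, so a value within a line has no replicate error. The libraries held 7609427 to 8140391 counts, and all 45 genes had at least 100 counts in every library. All 11 T lineage marker genes were above 3 counts in every library. Of 11 markers of other cell types, 5 to 7 were at 0 counts and 3 to 4 were above 3 counts in each library. The summed level of the 11 was 62.7 CPM in control and 61.1 CPM in treated CUTLL1 and 233 and 232 CPM in TIB153. CPM values are counts scaled to a common library size, by TMM for the replication genes and by the plain total for these marker sums.

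A cell licenses its origins when ORC, bound to DNA, recruits CDC6 and CDT1, which load the MCM2-7 rings in an inactive form, and geminin (GMNN) blocks CDT1 once DNA synthesis has begun. Kinases then turn the rings into the active helicase by adding CDC45 and GINS. Primase and polymerase alpha start each strand, polymerases delta and epsilon extend it on the PCNA clamp, and many of these genes are known as targets of E2F transcription factors, which drive entry into S phase.

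The letters of known E2F sites were searched on both strands around the annotated start of each gene, in windows of 250 bases before and 50 after it (RefSeq, build GRCh38.p14). Windows were found for 38 of the 45 genes, and those for RPA2, DNA2, RPA3, MCM4, POLD3, MCM5 and GINS4 were not analysed here. The letters were TTTCGCGC, TTTGGCGC, TTTCCCGC and TTTGCCGC. At least 1 of them was present in 19 of the 38 genes, against 3.99% of the 27305 genes with a window and 6.89% of the 9588 of those that were tested for expression. Of the 18 replication genes that fell with treatment, 16 had a window and 10 of those held a match (62.5%), and of the other 22 genes with a window 9 held a match (40.9%). The match was thus also frequent in the replication genes not called as fallen, a group that includes CDT1, which rose and held a match. That group was set by the edgeR threshold alone. GMNN, RFC3 and POLE, which held a match, belong to it and were also lower in both treated lines. The CCAAT box letters (CCAAT) were present in 23 of the 38 genes (60.5%), in 39.7% of all genes with a window and in 43.3% of the tested ones. The TCF/LEF core letters (CTTTGA) were present in 3 of 38 (7.89%), namely ORC5, GMNN and PCNA. They were present in 15.5% of all genes with a window and in 11.9% of the tested ones. These matches describe the sequence and do not show that a factor was bound.

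The stretches below are shown because they carry the E2F letters. They come from genes that fell, from the gene that rose and from CDC6 and POLE, whose smaller shifts did not pass the test. Each runs from 200 bases before the RefSeq start to 25 bases after it, in the direction of the gene, with E2F letters in capitals. MCM6 is from chr2:135876419-135876643 on the minus strand, MCM2 from chr3:127598211-127598435 on the plus strand, POLA1 from chrX:24693718-24693942 on the plus strand and PCNA from chr20:5126598-5126822 on the minus strand. CDT1 is from chr16:88803589-88803813 on the plus strand, CDC6 from chr17:40287679-40287903 on the plus strand and POLE from chr12:132687318-132687542 on the minus strand.
MCM6: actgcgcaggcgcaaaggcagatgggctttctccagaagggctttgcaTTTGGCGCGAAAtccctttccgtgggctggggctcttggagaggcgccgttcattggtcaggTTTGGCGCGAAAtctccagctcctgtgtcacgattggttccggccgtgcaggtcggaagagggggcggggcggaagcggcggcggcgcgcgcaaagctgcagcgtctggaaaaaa
MCM2: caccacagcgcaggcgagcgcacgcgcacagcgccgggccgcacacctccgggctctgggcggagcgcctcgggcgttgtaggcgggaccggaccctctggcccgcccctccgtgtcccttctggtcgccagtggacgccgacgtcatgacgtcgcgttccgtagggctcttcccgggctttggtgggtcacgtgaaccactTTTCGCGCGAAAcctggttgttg
POLA1: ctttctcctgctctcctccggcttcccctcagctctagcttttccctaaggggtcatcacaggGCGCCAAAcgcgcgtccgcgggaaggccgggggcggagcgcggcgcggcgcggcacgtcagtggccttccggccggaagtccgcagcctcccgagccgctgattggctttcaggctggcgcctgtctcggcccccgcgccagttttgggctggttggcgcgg
PCNA: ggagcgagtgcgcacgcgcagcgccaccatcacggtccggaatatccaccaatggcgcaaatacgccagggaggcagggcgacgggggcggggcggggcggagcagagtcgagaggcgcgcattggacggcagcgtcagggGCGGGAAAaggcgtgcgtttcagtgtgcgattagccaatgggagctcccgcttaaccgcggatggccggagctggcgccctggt
CDT1: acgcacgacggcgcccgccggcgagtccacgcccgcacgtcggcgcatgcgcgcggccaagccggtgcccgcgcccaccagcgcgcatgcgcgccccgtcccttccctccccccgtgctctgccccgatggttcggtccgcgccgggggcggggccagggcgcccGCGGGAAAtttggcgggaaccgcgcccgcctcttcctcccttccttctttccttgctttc
CDC6: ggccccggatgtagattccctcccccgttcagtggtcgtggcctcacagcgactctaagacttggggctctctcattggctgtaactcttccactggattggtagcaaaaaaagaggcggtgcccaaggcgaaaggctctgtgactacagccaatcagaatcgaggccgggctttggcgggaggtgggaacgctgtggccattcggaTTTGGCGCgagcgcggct
POLE: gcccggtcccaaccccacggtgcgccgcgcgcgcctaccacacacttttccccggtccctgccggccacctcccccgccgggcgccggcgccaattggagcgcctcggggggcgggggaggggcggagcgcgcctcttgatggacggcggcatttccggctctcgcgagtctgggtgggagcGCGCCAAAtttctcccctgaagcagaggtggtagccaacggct
The MCM6 stretch held 4 matches as 2 overlapping pairs, in which TTTGGCGC and the reverse complement of TTTCGCGC share bases. In MCM2 the same kind of overlap read TTTCGCGCGAAA and lay just past the start. POLA1, PCNA, CDT1, CDC6 and POLE each held 1 match. PCNA had another annotated start, not printed here, whose window held no E2F letters and held the TCF/LEF core letters counted above. Of the 16 genes that fell and had a window, 6 held no match.

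The comparison asked how these genes differed between PKF118-310-treated and control cells in each line and in both. Treated cells had lower levels of most of the replication genes, and CDT1 alone passed the test as higher. ORC1 and RPA2 were also higher in both lines but did not pass. Across lines, 18 of the 45 fell and 1 rose at an edgeR quasi-likelihood adjusted p under 0.05 (Benjamini-Hochberg over 13280 genes, cell line as a term, n = 2 lines). Among all genes tested, 6.78% fell and 6.11% rose. All 45 had a mean of at least 10 CPM, and among the 9491 genes at that level 9.12% fell and 6.44% rose. The genes that fell were all 6 of MCM2-7, CDC45, GINS1, GINS2, POLA1, POLD1, POLD2, POLE2, PCNA, RPA1, FEN1, LIG1 and RRM2. Of the 6 ORC genes none passed with edgeR or DESeq2, and 1 was higher and 2 lower at an unadjusted edgeR p under 0.05, as were 13.9% and 14.8% of all genes. The median change of the 45 genes was −0.33 on the log2 scale, against 0.00 for all genes tested. With the DESeq2 Wald test 6 fell (MCM3, MCM4, MCM6, POLA1, POLD2 and PCNA) and CDT1 rose, where 1.94% of all genes fell and 1.51% rose, and with scaling by total counts 9 fell. In bulk RNA, fewer cells in S phase and less RNA per cell cannot be told apart. The study also reports reduced viability of both lines at the dose and time used here, and markers of apoptosis after the same time. The treated cultures may thus have held dying cells, and their part in these levels was not tested.

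Ratios within a line are log2 values of the treated over the control level after TMM scaling, with a 95% interval for counting error alone. The scaled size of the treated library was 1.08 times that of the control in CUTLL1 and 1.09 times in TIB153, so equal counts mean a slightly lower level in treated cells. Beyond this counting error, 30 of the 45 genes were lower and 3 higher in treated CUTLL1, where 23.9% of all genes tested were lower and 23.3% higher. In TIB153 37 were lower and 3 higher, where 28.7% of all genes were lower and 25.2% higher. In both lines alike, 28 of the 45 were lower (15.7% of all genes) and 3, CDT1, ORC1 and RPA2, were higher (13.1% of all genes). No member was beyond counting error in opposite directions in the lines, and 3.4% of all genes were. Counting intervals are narrower at higher counts, and these shares of all genes were not matched for level. The shifts were modest in size: none reached 2-fold lower in CUTLL1 (2.21% of all genes did) and POLA1 alone did in TIB153 (2.12% of all genes). The median ratio was −0.32 in CUTLL1 and −0.39 in TIB153, where the medians of all genes were 0.00 and −0.01.

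**Figure D1:**
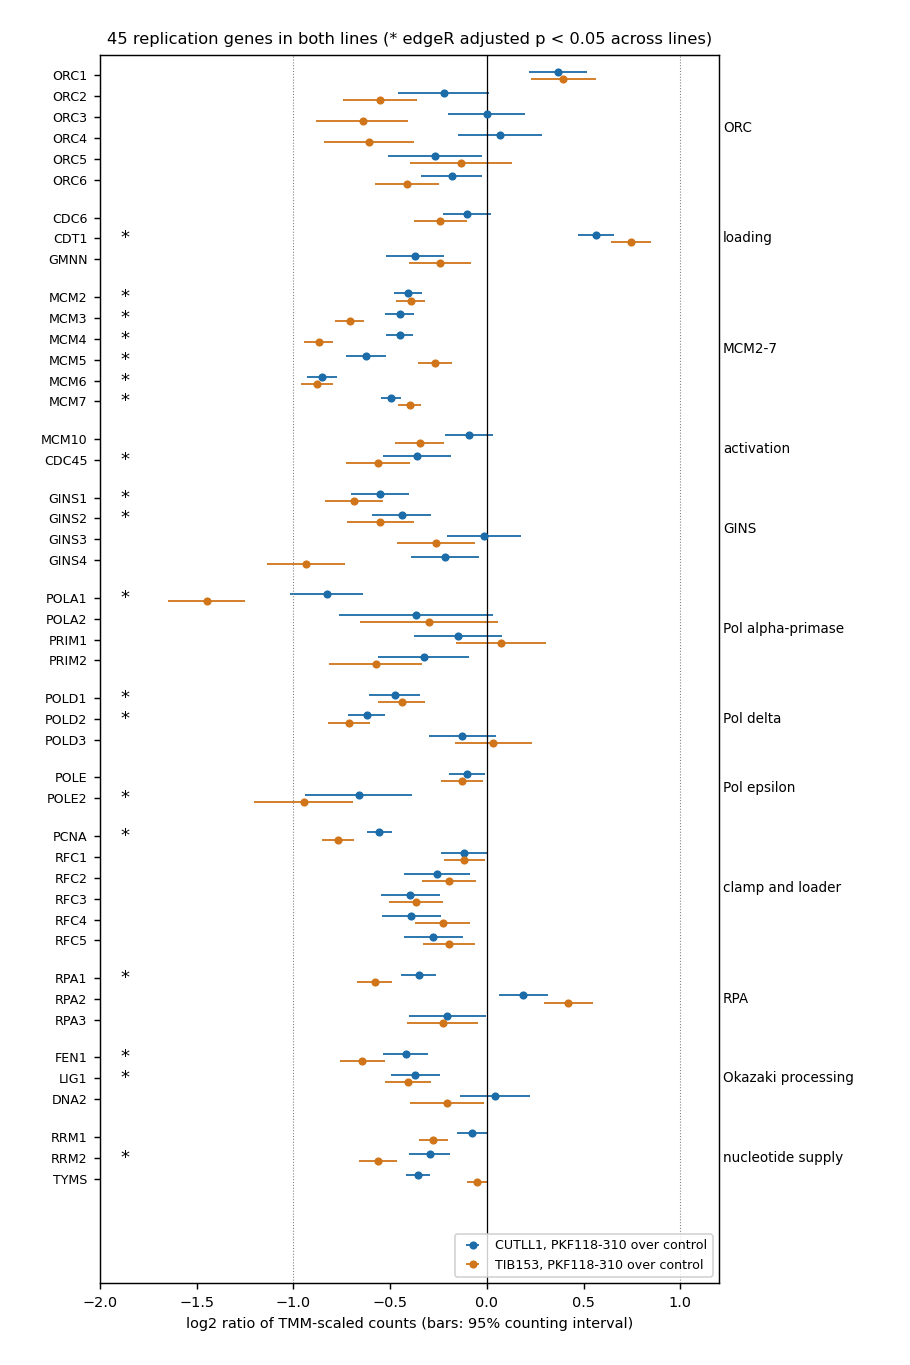
Log2 ratio of PKF118-310 over control (horizontal axis) for each of the 45 genes, grouped by complex, in CUTLL1 (blue) and TIB153 (orange), with 95% counting intervals as bars, dotted lines at 2-fold and a star where edgeR's adjusted p across lines was under 0.05. Points lie left of 0 for 40 of the 45 genes in each line, all 6 MCM2-7 genes carry a star, and CDT1, ORC1 and RPA2 lie right of 0 in both lines.

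The levels per exon length (RPKM, TMM-scaled) set the scale of these shifts. In control cells the median of the 45 genes was 28.8 RPKM in CUTLL1 and 28.7 in TIB153, and in treated cells 23.68 and 23.97. PCNA was the most abundant in CUTLL1 control at 410 RPKM and TYMS in TIB153 control at 313 RPKM. POLA2 was the least abundant in all 4 libraries, at 2.81 and 2.18 RPKM in control and treated CUTLL1 and 3.23 and 2.63 in TIB153. Within MCM2-7, whose products sit in the ring in equal number, MCM7 had the highest RPKM and MCM5 the lowest in every library. In CUTLL1 control they lay at 214 and 34.5 RPKM, and in TIB153 control at 152 and 37.5 RPKM. The length used joins all annotated exons of a gene, 4386 bases for MCM7 and 7338 for MCM5, and weighs on this order. By CPM, MCM6 lay below MCM5 in treated TIB153 (219 and 229 CPM). Together the 6 MCM genes took 0.304% of the counts in CUTLL1 control and 0.218% after treatment, and 0.270% and 0.189% in TIB153. Their summed CPM was 1.44-fold higher in control than in treated CUTLL1 and 1.49-fold in TIB153.

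**Figure D2:**
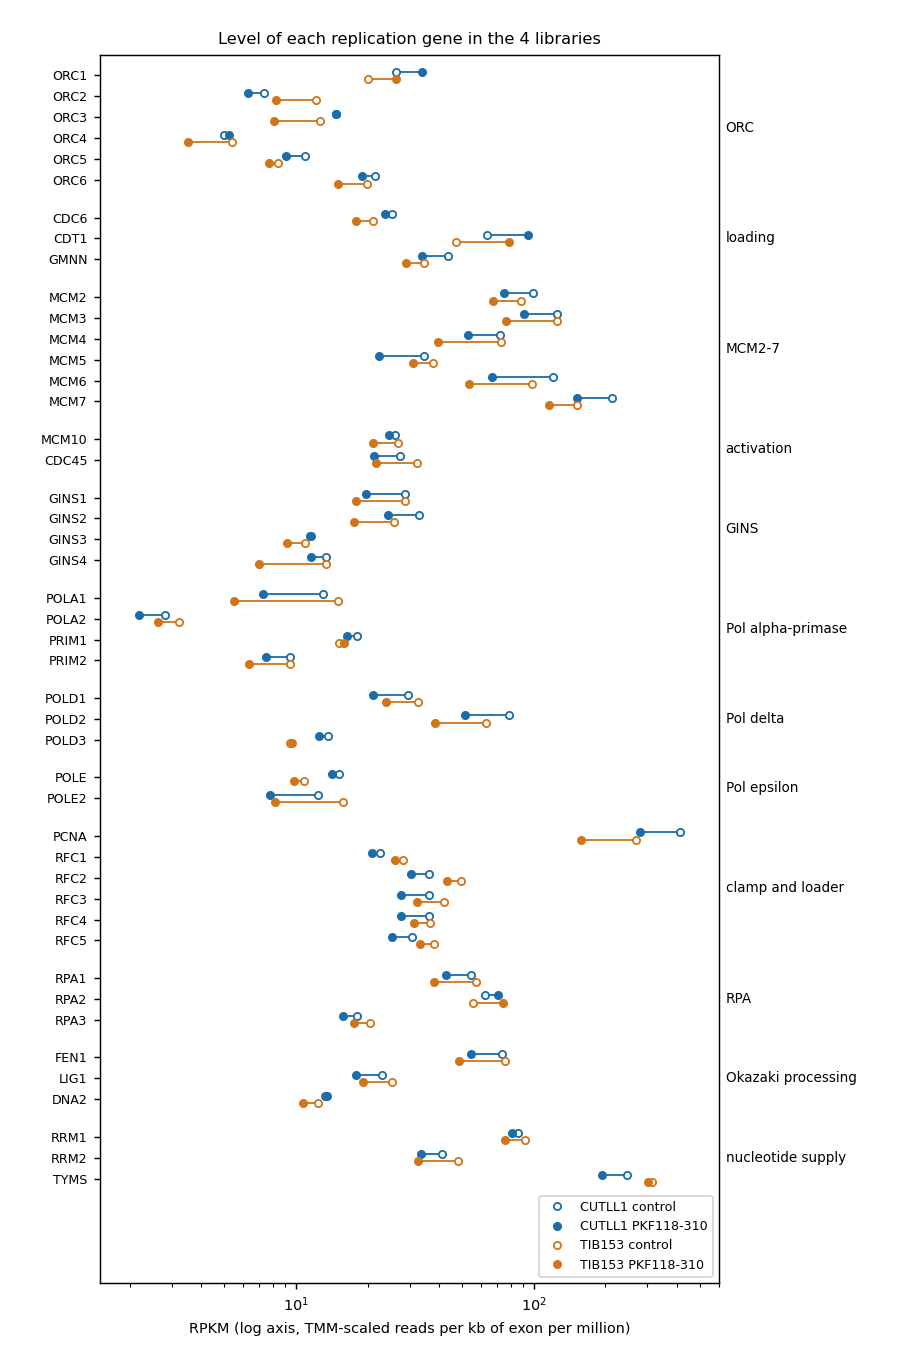
Level of each gene in RPKM (log axis) in control cells (open circles) and PKF118-310-treated cells (filled circles) of CUTLL1 (blue) and TIB153 (orange), 1 library per point, grouped by complex. The lines joining the circles run to the left for most genes, PCNA and TYMS are the most abundant in control cells and POLA2 is the least abundant in each library.

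ORC, the complex that marks origins, did not move as a unit. ORC1, its largest ATPase subunit, was the only ORC gene at a higher level in both treated lines. Counts are given for control and then treated cells. Its counts were 612 in control and 855 in treated CUTLL1, and 487 and 699 in TIB153. The ratios were 0.37 (0.22 to 0.52) and 0.40 (0.23 to 0.57), and the change across lines of 0.38 ± 0.13 (SE) had an edgeR adjusted p of 0.0747. ORC2 had the lowest mean ratio of the complex. It had counts of 316 and 293 (CUTLL1) and of 543 and 404 (TIB153), with ratios of −0.22 (−0.46 to 0.01) and −0.55 (−0.74 to −0.36) and an edgeR adjusted p of 0.123. The ratio of ORC1 to ORC2 counts went from 1.94 to 2.92 in CUTLL1 and from 0.897 to 1.73 in TIB153. ORC3 and ORC4 split by line: their ratios were 0.00 and 0.07 in CUTLL1 and −0.64 and −0.61 in TIB153. ORC5 lay at −0.27 and −0.13 and ORC6 at −0.18 and −0.41 in CUTLL1 and TIB153.

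Among the loading factors, CDT1 rose and its partner and inhibitor did not. CDT1, which brings MCM2-7 to ORC, had 1573 counts in control and 2519 in treated CUTLL1, and 1203 and 2201 in TIB153. Both treated libraries lay above both controls. Its ratios were 0.56 (0.47 to 0.66) and 0.75 (0.64 to 0.85), and its change across lines was 0.65 ± 0.12, a 1.57-fold rise with an edgeR adjusted p of 0.00595. GMNN, which encodes the CDT1 inhibitor geminin, had counts of 800 and 669 (CUTLL1) and of 655 and 604 (TIB153). Its ratios were −0.37 (−0.52 to −0.22) and −0.24 (−0.40 to −0.08), and its edgeR adjusted p of 0.14 missed the threshold. CDT1 counts were 1.97 times those of GMNN in control CUTLL1 and 3.77 times in treated cells, and 1.84 and 3.64 times in TIB153. CDC6, the ATPase that loads MCM2-7 with CDT1, lay at −0.10 (−0.23 to 0.02) in CUTLL1 and −0.24 (−0.38 to −0.10) in TIB153.

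MCM2-7, the core of the replicative helicase, was the complex in which every subunit fell with edgeR. With DESeq2, and with scaling by total counts, only MCM3, MCM4 and MCM6 of the complex did. MCM6 fell most. Its counts were 3672 in control and 2201 in treated CUTLL1, and 3093 and 1837 in TIB153. The ratios of −0.85 (−0.93 to −0.78) and −0.88 (−0.96 to −0.79) were alike in the lines, and the change across lines was −0.87 ± 0.12 (edgeR adjusted p = 0.00133), a 1.82-fold decrease. MCM4 had counts of 3709 and 2938 (CUTLL1) and of 3880 and 2318 (TIB153), with ratios of −0.45 and −0.87 and a change of −0.66 ± 0.14 (edgeR adjusted p = 0.00943). MCM3 had counts of 3363 and 2665 (CUTLL1) and of 3511 and 2342 (TIB153), with ratios of −0.45 and −0.71 and a change of −0.58 ± 0.13 (edgeR adjusted p = 0.0121). For both genes the counting intervals of the lines did not overlap, and TIB153 was the lower.

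The other MCM subunits had smaller shifts. MCM7 counts were 6938 and 5327 (CUTLL1) and 5118 and 4237 (TIB153), with ratios of −0.50 and −0.40 and a change of −0.45 ± 0.13 (edgeR adjusted p = 0.0346). MCM5 was the only MCM gene whose counting intervals did not overlap with CUTLL1 as the lower line. It had 1871 and 1314 counts there and 2115 and 1916 in TIB153, with ratios of −0.62 (−0.73 to −0.52) and −0.27 (−0.36 to −0.18) and a change of −0.44 ± 0.13 (edgeR adjusted p = 0.039). MCM2 had counts of 3590 and 2931 (CUTLL1) and of 3326 and 2760 (TIB153), with ratios of −0.41 and −0.39, and its change of −0.40 ± 0.12 was close to the threshold (edgeR adjusted p = 0.0466). MCM2 and MCM6, chosen as the subunits with the highest and lowest mean ratio, show the spread within the complex as a description: MCM2 counts were 0.978 times those of MCM6 in control and 1.33 times in treated CUTLL1, and 1.08 and 1.502 times in TIB153. On the log2 scale these shifts of the count ratio were 0.45 (0.34 to 0.55) and 0.48 (0.37 to 0.59), which do not depend on library scaling.

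The factors that turn the loaded rings into a helicase were lower in part. CDC45, which binds the ring with GINS, had counts of 574 and 484 (CUTLL1) and of 702 and 518 (TIB153), with ratios of −0.36 and −0.56 and a change of −0.46 ± 0.14 (edgeR adjusted p = 0.0437). MCM10, which acts at helicase activation, had counts of 1052 and 1070 (CUTLL1) and of 1125 and 964 (TIB153), with ratios of −0.09 (−0.21 to 0.03) and −0.35 (−0.47 to −0.22) and an edgeR adjusted p of 0.271. In GINS, the 4-subunit complex, GINS1 and GINS2 fell. GINS1 had counts of 865 and 639 (CUTLL1) and of 895 and 607 (TIB153), with ratios of −0.55 and −0.69 and a change of −0.62 ± 0.13 (edgeR adjusted p = 0.00963). GINS2 had counts of 795 and 635 (CUTLL1) and of 645 and 480 (TIB153), with ratios of −0.44 and −0.55 and a change of −0.49 ± 0.13 (edgeR adjusted p = 0.0284). Their treated counts lay below the control counts of both lines. GINS3 barely differed in CUTLL1 (436 and 467 counts, −0.02) and lay at −0.26 in TIB153 (429 and 390 counts, edgeR adjusted p = 0.591). GINS4 had the most unequal ratios of the complex, −0.22 (−0.39 to −0.04) in CUTLL1 and −0.93 (−1.14 to −0.74) in TIB153, and its edgeR adjusted p was 0.0595.

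In polymerase alpha with primase, which starts every new strand, the catalytic subunit POLA1 stood apart from the rest. POLA1 had 607 counts in control and 370 in treated CUTLL1, and 731 and 292 in TIB153. Its ratios were −0.83 (−1.02 to −0.64) and −1.45 (−1.65 to −1.25), and its change of −1.14 ± 0.17 (edgeR adjusted p = 0.00224) was the largest of the 45 genes, a 2.20-fold decrease. PRIM1, the catalytic primase subunit, had counts of 326 and 318 (CUTLL1) and of 284 and 326 (TIB153), with ratios of −0.15 (−0.38 to 0.08) and 0.07 (−0.16 to 0.31) and an edgeR adjusted p of 0.902. PRIM1 counts went from 0.537 to 0.859 times those of POLA1 in CUTLL1, and from 0.389 to 1.12 times in TIB153. The primase subunit PRIM2 lay at −0.32 and −0.58 (edgeR adjusted p = 0.0962). POLA2, the regulatory subunit, lay at −0.36 (−0.76 to 0.03) and −0.30 (−0.66 to 0.06) on only 100 to 142 counts, a depth at which shifts of this size were not told from none. Of POLA2's exonic bases 35.1% were shared with another annotated gene on the same strand, so its counts are uncertain.

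The polymerases that extend the strands also differed by subunit. POLD1, the catalytic subunit of polymerase delta, had counts of 1073 and 835 (CUTLL1) and of 1231 and 990 (TIB153), with ratios of −0.48 and −0.44 and a change of −0.46 ± 0.12 (edgeR adjusted p = 0.0257). POLD2, an accessory subunit, had counts of 2150 and 1513 (CUTLL1) and of 1781 and 1185 (TIB153), with ratios of −0.62 and −0.71 and a change of −0.67 ± 0.12 (edgeR adjusted p = 0.00494). POLD3, another accessory subunit, had counts of 554 and 549 (CUTLL1) and of 398 and 444 (TIB153), with ratios of −0.13 (−0.30 to 0.05) and 0.03 (−0.17 to 0.23). In polymerase epsilon, the leading strand enzyme, POLE2 fell and the catalytic subunit POLE moved little. POLE2 had counts of 269 and 184 (CUTLL1) and of 357 and 202 (TIB153), with ratios of −0.66 and −0.95 and a change of −0.81 ± 0.18 (edgeR adjusted p = 0.0125). POLE had counts of 1863 and 1878 (CUTLL1) and of 1375 and 1370 (TIB153), with ratios of −0.10 (−0.20 to −0.01) and −0.13 (−0.24 to −0.02) and an edgeR adjusted p of 0.564.

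The sliding clamp fell and its loader did not pass the test. PCNA, the ring that holds polymerases on DNA, had counts of 4456 and 3283 (CUTLL1) and of 3038 and 1943 (TIB153). Its ratios were −0.56 (−0.62 to −0.49) and −0.77 (−0.85 to −0.69), with a change of −0.66 ± 0.13 (edgeR adjusted p = 0.00614). The RFC genes, which load it, had ratios from −0.40 to −0.12 in the lines, and 4 of the 5 were lower beyond counting error in both. RFC1, the large subunit, had the smallest shift, with counts of 1125 and 1122 (CUTLL1) and of 1456 and 1464 (TIB153) and ratios of −0.12 in both. RFC3 came closest to the threshold among the loader genes, at −0.40 and −0.37 (edgeR adjusted p = 0.0646).

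RPA, the heterotrimer that coats single-stranded DNA, held subunits that moved apart. RPA1, the large subunit, had counts of 2211 and 1874 (CUTLL1) and of 2409 and 1757 (TIB153), with ratios of −0.35 and −0.58 and a change of −0.47 ± 0.13 (edgeR adjusted p = 0.0276). RPA2, the middle subunit, had counts of 928 and 1146 (CUTLL1) and of 862 and 1258 (TIB153), with ratios of 0.19 (0.06 to 0.32) and 0.42 (0.29 to 0.55), but its change of 0.30 ± 0.13 had an edgeR adjusted p of 0.125. The ratio of RPA2 to RPA1 counts went from 0.420 to 0.612 in CUTLL1 and from 0.358 to 0.716 in TIB153. On the log2 scale that was a shift of 0.54 (0.39 to 0.70) and 1.001 (0.85 to 1.16), free of library scaling. RPA2 and RPA1 were paired as the subunits with the highest and lowest mean ratio, so the shift is a description. RPA3, the small subunit, lay at −0.20 and −0.23.

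Of the enzymes that finish Okazaki fragments, the flap nuclease FEN1 and the ligase LIG1 fell. FEN1 had counts of 1340 and 1084 (CUTLL1) and of 1445 and 1009 (TIB153), with ratios of −0.42 and −0.64 and a change of −0.53 ± 0.12 (edgeR adjusted p = 0.0149). LIG1 had counts of 1121 and 939 (CUTLL1) and of 1277 and 1050 (TIB153), with ratios of −0.37 and −0.41 and a change of −0.39 ± 0.12 (edgeR adjusted p = 0.0486). DNA2, a nuclease and helicase for longer flaps, had counts of 474 and 528 (CUTLL1) and of 460 and 435 (TIB153), at 0.04 (−0.14 to 0.22) and −0.21 (−0.40 to −0.01).

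In nucleotide supply, RRM2, the small subunit of ribonucleotide reductase, fell. It had counts of 1613 and 1422 (CUTLL1) and of 1968 and 1455 (TIB153), with ratios of −0.30 and −0.56 and a change of −0.43 ± 0.13 (edgeR adjusted p = 0.0389). RRM1, the large subunit, had counts of 2640 and 2710 (CUTLL1) and of 2940 and 2647 (TIB153), with ratios of −0.08 (−0.15 to 0.00) and −0.28 (−0.35 to −0.20) and an edgeR adjusted p of 0.38. TYMS, thymidylate synthase, was lower in CUTLL1 only beyond counting error, at −0.36 (−0.42 to −0.30) against −0.05 (−0.10 to 0.00) in TIB153. TYMS shared 46.6% of its exonic bases with ENOSF1 on the opposite strand, and the sources used here do not say whether reads were counted by strand, so its counts are uncertain.

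The lines were compared gene by gene. For 13 of the 45 genes the counting intervals of the lines did not overlap, where 19.6% of all genes tested did the same, 11.7% with TIB153 and 7.82% with CUTLL1 as the lower. In 11 of the 13 TIB153 had the lower ratio (ORC3, ORC4, MCM3, MCM4, MCM10, GINS4, POLA1, PCNA, RPA1, RRM1 and RRM2) and in 2, MCM5 and TYMS, CUTLL1 did. The shares of all genes were again not matched for level. With 1 library per group, a difference between lines cannot be told apart from a difference between libraries. Over the 45 genes the ratios of the lines had a Spearman rho of 0.61 and a Pearson r of 0.75, and over all 13280 genes 0.51 and 0.48. These are descriptions across genes, which share the 4 libraries and are not independent replicates. Neither gene span nor level ordered the changes closely: the Spearman rho with span was 0.15 over the 45 genes and −0.11 over all genes, and with mean CPM −0.18 and −0.21.

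**Figure D3:**
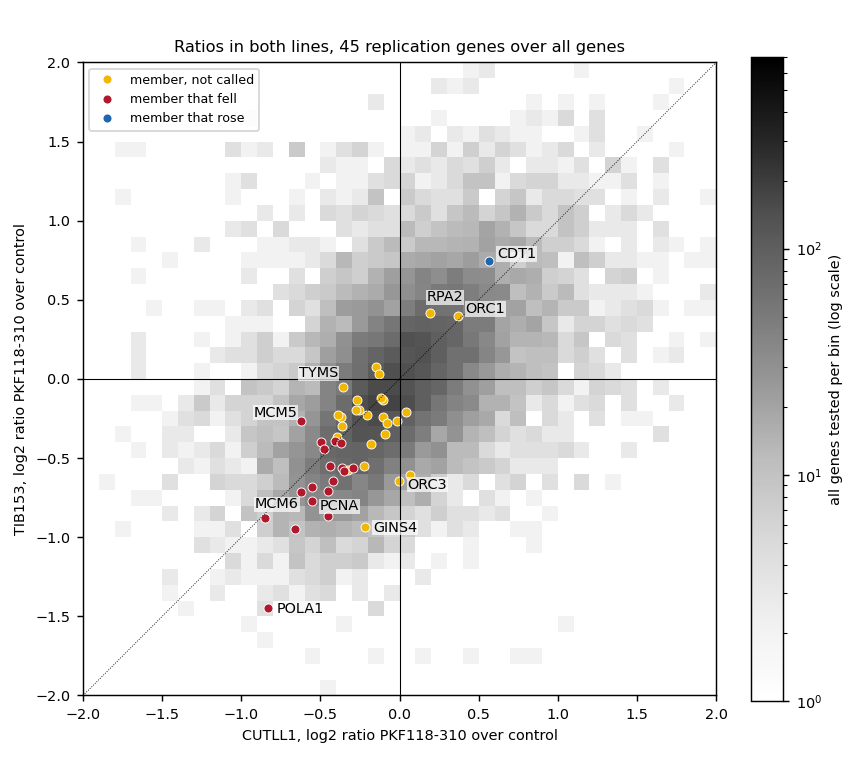
Treated over control ratio (log2) in CUTLL1 (horizontal axis) against TIB153 (vertical axis) for the 45 genes (points, colored by the edgeR call across lines) over the density of all genes tested (gray bins, log scale, 412 genes beyond ±2 not drawn). Most of the 45 lie below and left of 0, POLA1 is the farthest out at −0.83 and −1.45, CDT1 lies alone among the called genes at the upper right, and ORC3 and GINS4 lie well below the dotted line of equal ratios.

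Genes that work beside the 45 were counted from fixed lists, in the order of their roles. Of 12 kinases and factors that fire origins, none rose or fell with edgeR or DESeq2. At an unadjusted edgeR p under 0.05, 1 was higher and 1 lower, where 13.9% of all genes were higher and 14.8% lower. CDC7, the kinase that phosphorylates MCM2-7, lay at −0.11 in CUTLL1 and −0.27 in TIB153, and CCNE1, the G1/S cyclin E1, at −0.35 and −0.92 on 58 to 101 counts. Of 20 other fork and helicase factors, 4 fell: TOP2B, a type II topoisomerase, by 0.73, WDHD1, which links polymerase alpha to the helicase, by 0.57, CHTF8, part of an alternative clamp loader, by 0.49, and RNASEH2B, an RNase H2 subunit, by 0.45 on the log2 scale. CLSPN, the checkpoint mediator claspin, lay at 0.06 and −0.62. Of 8 genes for replication-coupled chromatin and methylation, 3 fell: UHRF1, the recruiter of DNMT1, by 0.61, CHAF1B, a chromatin assembly subunit, by 0.59, and SLBP, which binds histone mRNA, by 0.48. DNMT1, the maintenance methyltransferase, missed the threshold at −0.42 ± 0.13 (edgeR adjusted p = 0.0505).

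Of 9 tested genes for other steps of nucleotide supply, 5 fell and none rose, among them NME1 by 0.66, DCTPP1 by 0.56, CTPS1 (CTP synthase) by 0.54 and DUT (dUTPase) by 0.45. TK1, thymidine kinase, lay at −0.23 and −0.65 (edgeR adjusted p = 0.106). The median change of this list was −0.45, beside −0.33 for the 45 genes. With DESeq2, 1 gene fell in each of the fork, chromatin and nucleotide lists: TOP2B, UHRF1 and CTPS1.

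Among 13 E2F and RB regulators, E2F2 rose by 0.45 ± 0.12 (1491 and 2348 counts, then 965 and 1348) and TFDP2 and TFDP1, which encode the dimer partners of E2F proteins, fell by 0.59 and 0.57. RB1, the E2F inhibitor, was named after its values were seen: it lay at −0.33 in CUTLL1 and −1.28 in TIB153 (4844 and 2169 counts), with an edgeR adjusted p of 0.0616 and a DESeq2 adjusted p of 0.00871. With DESeq2, RB1, TFDP1 and TFDP2 fell and none of the 13 rose. E2F1 lay at −0.04 and 0.19 and E2F8, a repressor of the family, at 0.71 and 0.20 (edgeR adjusted p = 0.0931). CDK inhibitors and checkpoint outputs were the list with the highest median, 0.55, and 5 of 9 tested genes rose: CDKN1A, CDKN1B, CDKN2D, GADD45B and BTG1. With DESeq2, CDKN1A, CDKN1B and BTG1 did. CDKN1A, which encodes p21, had 27 counts in control and 220 in treated CUTLL1 and 12 and 40 in TIB153, a change of 2.43 ± 0.37 (edgeR adjusted p = 0.0024). CDKN1B, which encodes p27, had counts of 738 and 1076 (CUTLL1) and of 369 and 791 (TIB153), a change of 0.69 ± 0.15 (edgeR adjusted p = 0.0126).

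Mitosis markers differed by line. Of 16, NEK2 rose by 0.53 and BUB1 fell by 0.58 across lines, and the median change was 0.05. In CUTLL1 the median ratio was 0.20, with 9 higher and 2 lower beyond counting error, and in TIB153 it was −0.12, with 2 higher and 7 lower. For 12 of the 16 the counting intervals of the lines did not overlap, each with TIB153 as the lower. MKI67, which encodes the proliferation antigen Ki-67, had counts of 8374 and 13442 (CUTLL1) and of 7362 and 8304 (TIB153), with ratios of 0.57 and 0.05 (edgeR adjusted p = 0.192). CDK1, the mitotic kinase, lay at 0.29 and −0.04. These levels moved beside those of the replication genes in the same libraries, and their part in the result was not tested. Of the 11 T lineage markers, 4 fell: CD7 by 0.69, CD3G by 0.69, TRBC1 by 0.64 and CD247 by 0.49. In CUTLL1 10 of the 11 were lower beyond counting error and 1 higher, with a median ratio of −0.41 beside −0.32 for the 45 genes, and in TIB153 6 were lower and 4 higher, with a median of −0.20. The part of these shifts in the result was not tested either.

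**Figure D4:**
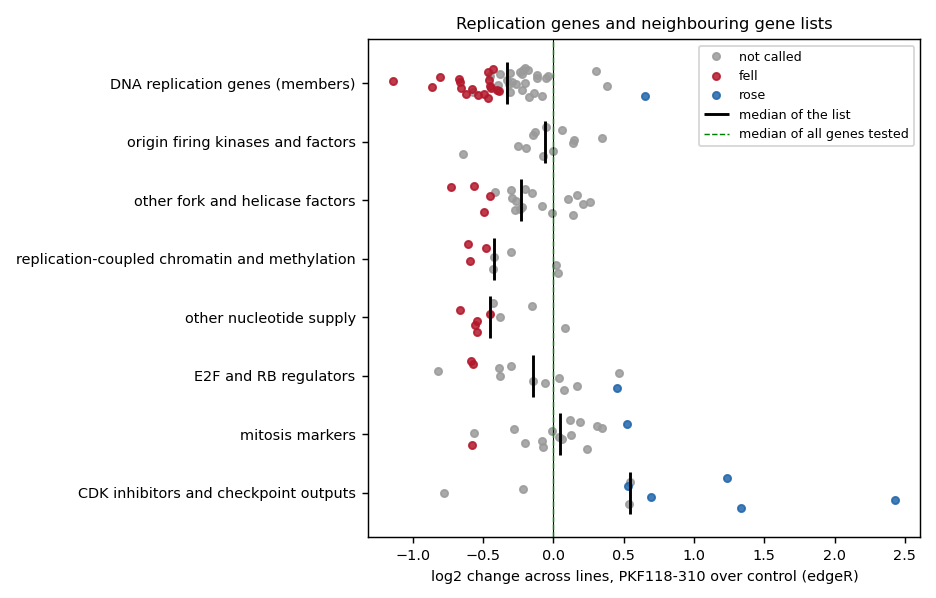
Log2 change across lines (edgeR, horizontal axis) of each tested gene in the 45-gene list and 7 neighboring lists (rows), with genes that fell in red, genes that rose in blue, others in gray, a black bar at each list's median and a dashed line at the median of all genes. The medians run from −0.45 for other nucleotide supply, over −0.33 for the 45 replication genes and 0.05 for mitosis markers, to 0.55 for CDK inhibitors.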

How the data were processed

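Polyadenylated RNA was prepared with a stranded mRNA kit, per the labels. The authors deposited whole-number counts of reads per gene for each lane, not normalized. HISAT2, HTSeq, DESeq2 and hg38 are named in the submitters' notes, with no versions or counting parameters. The authors also deposited 2 tables of their own comparisons (fold changes, p-values and adjusted p-values) with 8 per-sample columns of counts (2 control and 2 treated per line), and neither was used. Those columns carry no sample title and do not equal the lane counts, so whether they hold further libraries is not known. The study's heatmap of these lines names 2 placebo controls and 2 treated samples. How those relate to the columns or to the 2 lanes is not stated.

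The 2 lanes of each library were summed (chi-square per degree of freedom 0.990 to 1.02) and counted as 1 sample. R 4.3.3 with edgeR 4.0.16 and DESeq2 1.42.0 was used. filterByExpr left 13280 genes, which included all 45 members, and TMM set the scaling. Log2 ratios within a line used a pseudocount of 0.5 and exact binomial 95% intervals, and no p-value was formed there. Across lines, edgeR's quasi-likelihood test (robust) had cell line as a term and 1 residual degree of freedom against a median of 13.0 prior ones. The SE was derived from that test, as the absolute change divided by the square root of its F statistic. It thus rests mostly on spread pooled over genes. Exon lengths and shared bases came from GENCODE release 29.

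Members and lists were chosen with earlier results of these data known. Every member is reported, and those given in full passed the edgeR threshold, reached 2-fold in a line, or had the highest or lowest mean ratio of their complex. Genes whose counts are given as a ratio to each other were the highest and lowest of their complex by mean ratio. They were chosen from these values, so their shifts are descriptions. From the other lists, genes with at least 5 CPM that passed were named, up to 3 per direction and list, plus a few fixed by name. Where a list had up to 5 such genes the rest were named too, a choice made after their values were seen, except for 1 gene that is not reported here. Alternatives were scaling by total counts or DESeq2 size factors, no filter, each lane left out, the DESeq2 Wald test, no cell line term, a pseudocount of 2 and a 1.5-fold limit.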

Additional observations from a re-analysis of the deposited data

Results flagged for a closer look

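Some genes of the neighboring lists lay beyond counting error in opposite directions in the lines, as did 3.4% of all genes tested and none of the 45 replication genes. With 1 library per group the difference between lines was not tested. Among replication factors and their partners, CCNA2 (cyclin A2) was at a log2 ratio of 0.15 in CUTLL1 and −0.29 in TIB153, CHTF18 (an alternative clamp loader subunit) at −0.29 and 0.27, and CHAF1A (a chromatin assembly subunit) at 0.21 and −0.17. Of the mitosis markers, CDC20 lay at 0.29 and −0.22 and CENPF at 0.35 and −0.37. Of the T lineage markers, PTPRC lay at 0.42 and −0.20, CD3D at −0.28 and 0.26, CD5 at −0.55 and 0.18, LCK at −0.14 and 0.10 and TRBC2 at −0.15 and 0.20. These are 10 of the 98 listed genes with a mean of at least 5 CPM, and the shares of the lists were not compared by a test.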

How the results depend on the processing

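CDT1 rose and MCM3, MCM4, MCM6, POLA1, POLD2 and PCNA fell under every alternative except the fit with no cell line term. That fit called no gene in either direction: 0 of the 45 replication genes rose and 0 fell, where 1 and 10 passed an unadjusted edgeR p under 0.05, and 0 of all genes rose and 0 fell, where 437 and 452 did. Without that term the difference between the lines enters the residual spread. Scaling by total counts left 9 replication genes that fell and 560 of all genes. With DESeq2's Wald test 6 replication genes fell, 200 of all genes rose and 258 fell. DESeq2 size factors left 15 of the 18 replication genes (813 of all genes fell), and no filter gave 20, adding GINS4 and RFC3 (1320 of all genes). With 1 lane left out, 12 to 14 replication genes and 606 to 750 of all genes fell. LIG1 and CDC45 passed in 1 of the 7 alternatives, and MCM2, MCM5 and RRM2 in 2. No call of a replication gene changed sign in any alternative run.

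Within the lines, a limit of 1.5-fold in place of 2-fold counted 5 replication genes as lower in CUTLL1, and 12 as lower and 1 as higher in TIB153. Of all genes it counted 1260 as higher and 848 as lower in CUTLL1, and 1513 and 1303 in TIB153. With 1 lane left out, 0 to 1 replication gene (POLA1) was at least 2-fold lower in CUTLL1 and 1 to 2 (POLA1 and POLE2) in TIB153. The median ratio of the replication genes ranged from −0.35 to −0.28 in CUTLL1 and from −0.44 to −0.33 in TIB153 over the alternatives. The 2 lanes are technical reads of 1 library and pair nothing, and treated and control cells were paired by cell line in the edgeR test itself. With 1 library per group analysed, the spread between cultures was not measured, and for genes near 100 counts, such as POLA2, ratios of −0.30 and −0.36 were within counting error.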
